A study of Mus musculus with 5 samples.

Results

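The genes described here are 10 genes tied to epithelial-to-mesenchymal transition (EMT): the ZEB factors Zeb1 and Zeb2, the SNAIL factors Snai1, Snai2 and Snai3, the factor Twist1, the corepressors Ctbp1 and Ctbp2, and the targets Cdh1 and Vim. They were taken by gene symbol from a table of 55487 genes, and all 10 were in it. The table holds RNAseq of macrophages sorted as viable CD45+ cells that also carried the macrophage surface antigen of Adgre1 and, by the methods but not the labels, CD11b, from digested aortas of male Apoe-null mice that received chow for 8 weeks and a Western diet for the next 10 weeks, up to an age of 18 weeks. There were 2 libraries labelled Zeb1WT/ApoeKO and 3 labelled Zeb1∆M/ApoeKO, and the comparison asks which genes differ in plaque macrophages when Zeb1 is deleted in the myeloid lineage. All animals lacked Apoe and carried Zeb1 alleles with loxP sites around exon 6, so that Zeb1WT stands for the floxed gene without Cre. In Zeb1∆M mice the Cre recombinase was driven from the endogenous Lyz2 locus, which is active in macrophages and also in neutrophils. The methods give 3 mice mixed per genotype and condition, and the paper calls all its replicates biologically independent. Whether the libraries of a genotype came from separate mixes is not stated, so p-values measure the spread between these libraries, which may be technical.

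ZEB1 and its paralog ZEB2 are zinc finger factors that bind E-boxes, short DNA motifs in promoters such as that of Cdh1, and repress them with the help of the corepressors CtBP1 and CtBP2. The SNAIL factors and TWIST1 act on many of the same promoters. In epithelial cells this program lowers E-cadherin, the product of Cdh1, and raises vimentin, the product of Vim, while the miR-200 family of microRNAs holds ZEB1 and ZEB2 down in turn. Macrophages are not epithelial: they make vimentin and ZEB2 as part of their normal identity.

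Total expected counts, the read numbers per gene that RSEM estimates, ran from 20118545 to 50649912 per library, so that 3 counts corresponded to between 0.0592 and 0.149 CPM, the count as a share of the library total. Floors and intervals given here hold for counting error alone, because PCR copies of a molecule are counted as separate reads. The library labelled Zeb1∆M/ApoeKO replicate 1 stood apart from the others. It had 864 genes above 100 counts, against 1713 to 4419 in the other 4, and 13018 genes with 4 to 30 counts, against 1236 to 4765. Of 12 markers of macrophages, 5 to 11 were above 100 counts in each library, and their summed level was 23059 to 40178 CPM of the total. The lowest sum, in Zeb1∆M/ApoeKO replicate 1, was mostly C1qb, a complement gene of macrophages, at 16351 CPM of the total against 1927 to 5530 in the other libraries, and Lyz2, at 6631 against 17173 to 29628. Whether the Cre, driven from the Lyz2 locus in Zeb1∆M/ApoeKO only, alters the count of Lyz2 was not tested. The lowest count of Adgre1, which encodes that sorted antigen, was 1068 and that of Ptprc, which encodes CD45, was 475, both in Zeb1∆M/ApoeKO replicate 1. Itgam, which encodes CD11b, had 441 and 3074 counts in Zeb1WT/ApoeKO and 0, 33 and 1988 in Zeb1∆M/ApoeKO, so it was not detected in replicate 1. That library also had 25 counts of Csf1r. Cd68 had 0 and 44664 counts in Zeb1WT/ApoeKO and 10, 36172 and 46735 in Zeb1∆M/ApoeKO, and C1qa likewise was at 0 in Zeb1WT/ApoeKO replicate 1 and at 5 in Zeb1∆M/ApoeKO replicate 1. Mertk did not exceed 22 counts anywhere. Markers of T cells summed to between 0.862 and 3660 CPM, with the highest value in Zeb1WT/ApoeKO replicate 2, and markers of neutrophils to between 138 and 3592 CPM, with the highest value in Zeb1WT/ApoeKO replicate 1. Of the fibroblast markers, Dcn had 19005 counts in Zeb1∆M/ApoeKO replicate 2 and at most 1 in every other library, while in replicate 2 the list's other members were at 0 except Col1a2, with 5. Of 6 smooth muscle markers, Acta2, Tagln and Cnn1 were at 0 throughout, and Myh11, Lmod1 and Myocd had 11, 6 and 14 counts in Zeb1∆M/ApoeKO replicate 1 and 0 elsewhere. Epithelial markers did not exceed 0.205 CPM in sum. Markers of endothelial cells summed to between 0.196 and 224 CPM and those of dendritic cells to between 0 and 444 CPM. Both sums were highest in Zeb1∆M/ApoeKO replicate 3. There Cd209a made most of the dendritic sum, with 21805 counts, while Flt3, Xcr1 and Zbtb46 were at 0. Of the endothelial markers, Egfl7 had 8733 counts in that library, while Cdh5, Kdr and Vwf were at 0.

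Zeb1, the gene targeted in these mice, was not detected in either library of the genotype that should express it. Its expected count was 0 and 0 in Zeb1WT/ApoeKO, and 22, 0 and 0 in Zeb1∆M/ApoeKO replicates 1, 2 and 3. The only library with Zeb1 counts was therefore one labelled as deleted, and the counts did not check the labels. For counting error alone, a count of 0 at these depths allows up to 0.149 and 0.0867 CPM in the Zeb1WT/ApoeKO libraries. In Zeb1∆M/ApoeKO replicates 2 and 3 it allows up to 0.0839 and 0.0592 CPM. The 22 counts, with an exact 95% Poisson interval of 13.8 to 33.3 for counting error, amount to 0.903 CPM of the total of their library. The difference in mean log2 CPM (a scale with a prior count of 2 added) was 1.66 towards Zeb1∆M/ApoeKO, with p = 1 in the two-sided exact permutation test, whose smallest possible p for 2 libraries against 3 is 0.1. In bulk libraries, fewer cells of a type and less RNA per cell cannot be told apart. The annotation places Zeb1 (ENSMUSG00000024238.15) on chromosome 18 of GRCm38 from 5591860 to 5775467, on the plus strand. Exons of Gm10125, a transcript on the opposite strand, overlap those of Zeb1, and Gm10125 had 50 counts in Zeb1∆M/ApoeKO replicate 1 and 0 in every other library. Counting by strand is not stated, so reads of both loci cannot be told apart, and a count per gene does not show whether exon 6 was read.

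Zeb2, the paralog, was the only zinc finger factor among the 10 genes with more than 30 counts, and it was above 3 counts in every library. Its expected count was 2123 and 3976 in Zeb1WT/ApoeKO and 76, 25589 and 4368 in Zeb1∆M/ApoeKO. Scaled by TMM normalization, the level was 74.4 and 108 CPM in Zeb1WT/ApoeKO, and 6.05, 574 and 83.4 CPM in Zeb1∆M/ApoeKO. The 2 libraries of the first genotype lay between the lowest and the highest of the second, so the groups overlapped. The mean was 91.3 ± 24.0 CPM (SD, n = 2) in Zeb1WT/ApoeKO and 221 ± 308 CPM (SD, n = 3) in Zeb1∆M/ApoeKO. The fitted log2 fold change was 1.26 with a standard error of 4.30, and its adjusted p in the edgeR quasi-likelihood test was 1. On the scale of mean log2 CPM the difference had the opposite sign, -0.44, with p = 0.9 in the exact permutation test. The sign of the fit was not stable: the log2 fold change was -0.98 without the library with 25589 counts, -2.66 under upper-quartile scaling and -0.61 with the replicate number as a block. Without Zeb1∆M/ApoeKO replicate 1 it was 1.67. Zeb2 (ENSMUSG00000026872.18) lies at 44983632 to 45117395 of chromosome 2 on the minus strand. Exons of the antisense gene Zeb2os overlap it, and Zeb2os had 1 and 0 counts in Zeb1WT/ApoeKO and 27, 207 and 240 in Zeb1∆M/ApoeKO, so that part of either count may belong to the other.

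**Figure D1:**
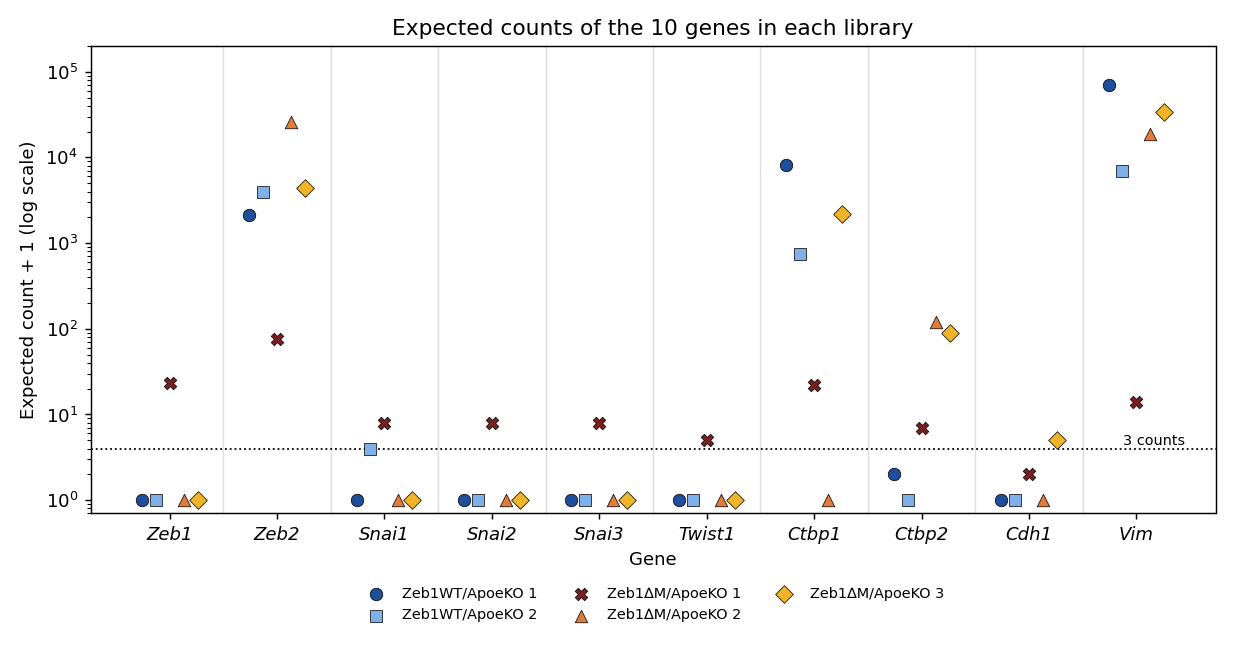
Expected count plus 1 on a log axis for each of the 10 genes, with one symbol per library and a dotted line at 3 counts. Zeb2, Ctbp1 and Vim reach above 100 counts in most libraries, Ctbp2 reaches 119, and the other 6 genes stay at 22 counts or fewer, with the cross of Zeb1∆M/ApoeKO replicate 1 above 0 for every gene.

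Between the paralogs, nearly all counts belonged to Zeb2. Zeb2 made up 100% of the counts of Zeb1 plus Zeb2 in 4 libraries, with lower limits of the exact 95% binomial interval between 99.8% and 99.99%. In Zeb1∆M/ApoeKO replicate 1 it made up 77.6% of 98 counts (68.0% to 85.4%). Per exonic kilobase, the level of Zeb2 was at least 364-fold and at least 682-fold that of Zeb1 in the Zeb1WT/ApoeKO libraries when Zeb1 was set to the floor of 3 counts per library. The same bound was at least 4391-fold and at least 750-fold in Zeb1∆M/ApoeKO replicates 2 and 3, and the ratio in replicate 1, where both genes were counted, was 1.78-fold. Such bounds hold for counting error alone. Of genes with at least 1000 counts in some library, 83.8% had 3 counts or fewer in another, so a 0 does not cap expression. As CPM of the library total per exonic kilobase, Zeb2 stood at 5.29 and 5.76 in Zeb1WT/ApoeKO and at 0.156, 35.9 and 4.32 in Zeb1∆M/ApoeKO.

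What the paralogs share in sequence is a dense set of miR-200 sites in their 3′ UTRs, and the sequences are shown because this family is the known brake on both genes. The mature forms of the family fall into a pair of seed groups, the seed being bases 2 to 8, given here in capitals, from RefSeq (GRCm38.p6).
mmu-miR-141-3p: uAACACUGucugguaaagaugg
mmu-miR-200a-3p: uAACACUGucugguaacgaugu
mmu-miR-200b-3p: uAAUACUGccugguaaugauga
mmu-miR-200c-3p: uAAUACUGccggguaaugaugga
mmu-miR-429-3p: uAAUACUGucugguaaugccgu
The 3′ UTR of Zeb2 (4941 bases in the transcript with the longest) held 4 matches to the seed AACACUG and 5 to AAUACUG, 9 in all, and that of Zeb1 (2401 bases) also held 4 and 5. The matches nearest to the stop codon of Zeb2, one for each seed, lie 209 and 393 bases after it in the GENCODE M21 transcript, at chr2:44988346-44988375 and chr2:44988162-44988191 of GRCm38 on the minus strand, with the seed match in capitals.
Zeb2 site of the AACACUG seed: aaaattttgtaCAGTGTTaaggcctaaaaa
Zeb2 site of the AAUACUG seed: ctaccatacatCAGTATTttattattatta
Among 21037 genes with an annotated 3′ UTR, 5416 (25.7%) held at least 1 match to either seed and 3 (0.0143%) held 9 or more, Zeb1 and Zeb2 among them. The median length of these UTRs was 960 bases, shorter than those of Zeb1 and Zeb2, and the counts were not adjusted for length. Of the other members, Snai2 held 2 matches, Snai1 and Ctbp2 held 1 each, and Snai3, Twist1, Ctbp1, Cdh1 and Vim held 0. A match is a description of letters and not a measured site. The loci of these microRNAs and Mir205, 6 in all, were listed at 0 counts in all 5 libraries, but the kit primes cDNA on poly(A) tails and does not measure mature microRNAs.

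The SNAIL factors and Twist1 were near or at 0 in every library but one. Snai1, a repressor of Cdh1 and a common marker of EMT, had 0 and 3 counts in Zeb1WT/ApoeKO and 7, 0 and 0 in Zeb1∆M/ApoeKO. Snai2 (SLUG) and Snai3 each had 0 and 0 counts in Zeb1WT/ApoeKO and 7, 0 and 0 in Zeb1∆M/ApoeKO. Twist1, a basic helix-loop-helix factor of mesoderm, had 0 and 0 counts in Zeb1WT/ApoeKO and 4, 0 and 0 in Zeb1∆M/ApoeKO. The library with these counts was again Zeb1∆M/ApoeKO replicate 1. The exact 95% Poisson interval was 2.81 to 14.4 for a count of 7 and 1.09 to 10.2 for a count of 4. None of these genes had enough counts to be tested, and their differences in mean log2 CPM, from 0.50 for Snai1 to 1.14 for Snai2 and Snai3, had p = 1 in the exact permutation test. In the remaining libraries the SNAIL genes and Twist1 did not exceed 3 counts, so expression was not detectable at these depths. In GRCm38, Snai1 (ENSMUSG00000042821.7) lies at 167538195 to 167542814 of chromosome 2, Snai2 (ENSMUSG00000022676.7) at 14705852 to 14709385 of chromosome 16, Snai3 (ENSMUSG00000006587.6) at 122454208 to 122460733 of chromosome 8, and Twist1 (ENSMUSG00000035799.6) at 33957671 to 33959829 of chromosome 12. The RefSeq promoter table held windows, from 250 bases before to 50 after the start site, for Zeb2, Snai1, Twist1, Ctbp1, Ctbp2 and Vim. The E-box that ZEB and SNAIL factors are known to bind, CACCTG on either strand, was found in the window of Snai1, 126 bases before the start site, and in 6640 of all 32851 windows (20.2%). For Zeb2, with 4 windows, and Ctbp2, with 2, only the window nearest to the annotated gene start was searched.

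The corepressors gave the most uneven pattern. CtBP1 and CtBP2 are closely related proteins that bind NADH and bring histone-modifying enzymes to ZEB and other repressors. Ctbp1 had 8107 and 748 counts in Zeb1WT/ApoeKO and 21, 0 and 2201 in Zeb1∆M/ApoeKO. It ranged from 0, in a library with 35771785 counts in total, to 8107 in the library with the fewest. As TMM CPM, Ctbp1 was 284 and 20.4 in Zeb1WT/ApoeKO and 1.67, 0 and 42.0 in Zeb1∆M/ApoeKO, and the means were 152 ± 186 (SD, n = 2) and 14.6 ± 23.8 (SD, n = 3). The groups overlapped, with Zeb1∆M/ApoeKO replicate 3 above Zeb1WT/ApoeKO replicate 2. The log2 fold change was -3.38 with a standard error of 4.95 (edgeR adjusted p = 1), and it was -0.40 without Zeb1WT/ApoeKO replicate 1 and -7.29 without Zeb1∆M/ApoeKO replicate 3. The medians over all genes tested in the latter fits were 6.42 and 0.508.

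Ctbp2 had few counts and was the only member whose groups did not overlap. Its count was 1 and 0 in Zeb1WT/ApoeKO and 6, 119 and 88 in Zeb1∆M/ApoeKO. As TMM CPM this was 0.0350 and 0, against 0.478, 2.67 and 1.68, with means of 0.0175 ± 0.0248 (SD, n = 2) and 1.61 ± 1.10 (SD, n = 3). All 3 Zeb1∆M/ApoeKO libraries were higher, which gave p = 0.1 in the exact permutation test, the smallest it allows. The ratio of summed counts, each set against the sum of its libraries' totals multiplied by their TMM factors, was 127 with an exact 95% interval of 22.5 to 5035, which covers counting error and not the spread between libraries. Without Zeb1∆M/ApoeKO replicate 1 it was 139 (24.7 to 5528). The fitted log2 fold change was 6.29 with a standard error of 5.32 (edgeR adjusted p = 1). Of all genes tested, 11.2% had groups that did not overlap, and 1 of the 4 members tested did. Ctbp2 entered the tested genes through the Zeb1∆M/ApoeKO libraries in which it was high, and it failed the filter without replicate 2 or 3, so its separation is a description. Exons of Fgfr2 overlap those of Ctbp2 on the same strand, and Fgfr2 had 1, 0, 49, 2 and 0 counts in the 5 libraries in the same order.

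Which corepressor held more of the counts differed between libraries. Ctbp1 made up 99.988% and 100% of the counts of Ctbp1 plus Ctbp2 in Zeb1WT/ApoeKO. In Zeb1∆M/ApoeKO it made up 77.8% of 27 counts in replicate 1 (exact 95% binomial interval 57.7% to 91.4%), 0% of 119 in replicate 2 (up to 3.05%) and 96.2% in replicate 3 (95.3% to 96.9%). Per exonic kilobase, the level of Ctbp1 was 34.8-fold that of Ctbp2 in Zeb1∆M/ApoeKO replicate 3, whereas in replicate 2 the level of Ctbp2 was at least 28.5-fold that of Ctbp1. That bound holds for counting error alone. The order was thus opposite in libraries of the same genotype. Ctbp1 (ENSMUSG00000037373.12) lies at 33247723 to 33274994 of chromosome 5 and Ctbp2 (ENSMUSG00000030970.16) at 132987563 to 133124354 of chromosome 7, both on the minus strand of GRCm38.

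The epithelial target Cdh1 had 4 counts or fewer in each library, and the mesenchymal target Vim was abundant in 4 of 5 libraries. Cdh1, the adhesion molecule that ZEB1 represses, had 0 and 0 counts in Zeb1WT/ApoeKO and 1, 0 and 4 in Zeb1∆M/ApoeKO. Its difference in mean log2 CPM of 0.83 had p = 0.4 in the exact permutation test, and all its libraries were at most 1 count above the floor. Vim had 70175 and 6953 counts in Zeb1WT/ApoeKO and 13, 18806 and 33871 in Zeb1∆M/ApoeKO. As TMM CPM, Vim was 2459 and 189 in Zeb1WT/ApoeKO and 1.03, 422 and 647 in Zeb1∆M/ApoeKO, with means of 1324 ± 1605 (SD, n = 2) and 357 ± 328 (SD, n = 3). The groups overlapped, and the 2 Zeb1WT/ApoeKO libraries differed from each other by more than the group means did. The log2 fold change was -1.88 with a standard error of 2.95 (edgeR adjusted p = 1), it turned to 1.0 without Zeb1WT/ApoeKO replicate 1, and it was -1.64 without Zeb1∆M/ApoeKO replicate 1. The medians over all genes tested in the latter fits were 6.42 and 0.138, so Vim lay below the median in each. In the library with 13 counts of Vim, Lyz2, which encodes lysozyme and drives the Cre, had 161607. Cdh1 (ENSMUSG00000000303.12) lies at 106603351 to 106670246 of chromosome 8 and Vim (ENSMUSG00000026728.9) at 13573927 to 13582826 of chromosome 2, both on the plus strand of GRCm38.

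Ordered by CPM of the library total per exonic kilobase, Vim was first in Zeb1WT/ApoeKO, with 735 and 42.4, and in Zeb1∆M/ApoeKO replicates 2 and 3, with 111 and 141. Zeb2 and Ctbp1 followed, and their order was not the same in all libraries: Ctbp1 was at 90.0 and Zeb2 at 5.29 in Zeb1WT/ApoeKO replicate 1, while Ctbp1 was at 4.83 and Zeb2 at 5.76 in replicate 2. Ctbp2 was at 0.535 or less, and in Zeb1∆M/ApoeKO replicate 2, where Ctbp1 was at 0, it stood above Ctbp1. In Zeb1∆M/ApoeKO replicate 1 this order was lost, since Ctbp1 stood at 0.193, Snai1 at 0.177, Zeb2 at 0.156, Vim at 0.112 and Zeb1 at 0.0879.

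The counts of the members in Zeb1∆M/ApoeKO replicate 1 were therefore set beside genes that had counts in that library alone. All 10 members were above 0 in it, while 5 to 7 of the 10 were at 0 in each other library, and 5 had their highest count there. Among 8870 protein-coding genes at 0 in the other 4 libraries, 2536 (28.6%) had 4 to 30 counts in Zeb1∆M/ApoeKO replicate 1. The same share was 0.768% to 4.74% when each of the other libraries was taken in its place. Per exonic kilobase, such genes with any count had a median of 2.33 counts in Zeb1∆M/ApoeKO replicate 1 (quartiles 1.10 and 4.57, 3746 genes). Zeb1 had 2.14 counts per kilobase, close to that median, and belongs to this set itself, as do Snai2, Snai3 and Twist1. Of the 10 members, 7 lay between those quartiles, among them Zeb2 with 3.81 and Vim with 2.74, while Ctbp1 had 4.69, Ctbp2 0.965 and Cdh1 0.219. The source of these low counts was not tested.

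**Figure D2:**
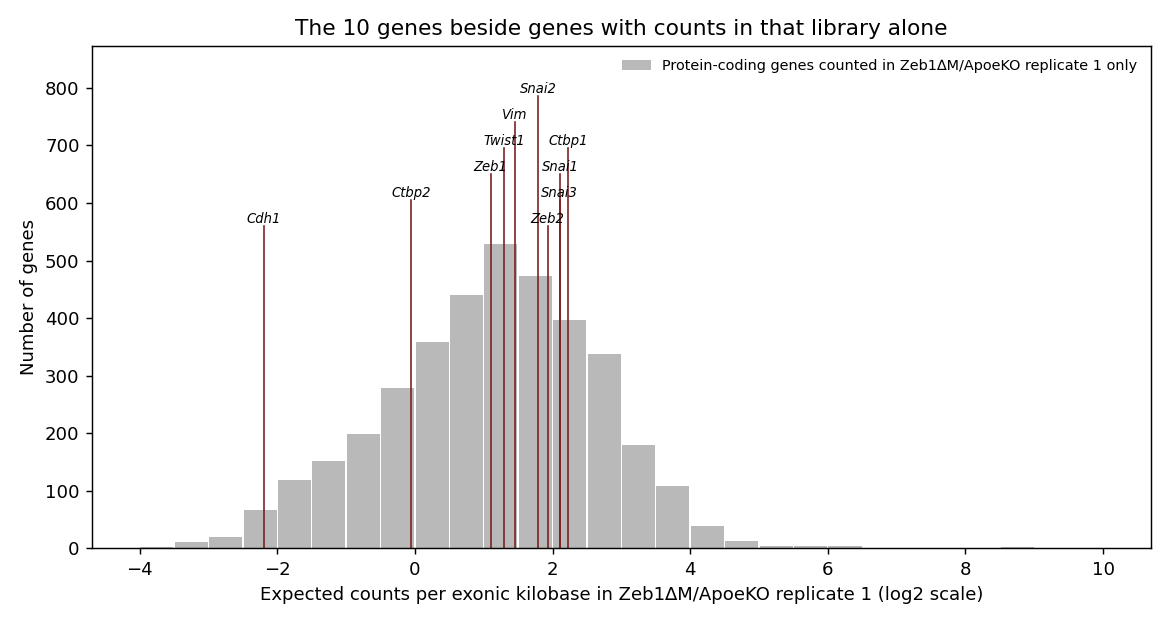
Histogram of expected counts per exonic kilobase (log2 axis) in Zeb1∆M/ApoeKO replicate 1 for 3746 protein-coding genes that were at 0 in the other 4 libraries, with a vertical line for each of the 10 genes. Zeb1, the SNAIL genes, Twist1, Zeb2 and Vim lie between the quartiles of the histogram, 1.10 and 4.57, Ctbp2 and Cdh1 lie below them, and Ctbp1 lies just above.

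The abundant members can be set beside other genes that were high in some library. Of 5694 genes with at least 1000 counts in some library, 4772 (83.8%) had 3 counts or fewer in another one, as Ctbp1 did. Zeb2 and Vim were among the 922 (16.2%) that exceeded 3 counts in all 5 libraries. The lowest count was at least that of Zeb2, 76, for 309 of these genes (5.43%) and at least that of Vim, 13, for 580 (10.2%).

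Between the genotypes, no member passed the test. Of the 10 members, 4 (Zeb2, Ctbp1, Ctbp2 and Vim) passed the filter on low counts and 0 had an adjusted p under 0.05 in the edgeR quasi-likelihood test, where 0 of 7905 genes did (0%). None of the 4 had an unadjusted p under 0.05, which 86 genes had (1.09%). DESeq2 called 12.1% of the 6519 genes it gave an adjusted p, and 0 of the 3 members among them, with adjusted p of 0.877 for Zeb2, 0.445 for Ctbp1 and 0.588 for Vim. It gave none for Ctbp2. The spread behind these tests was wide, with a common dispersion of 6.44. The median log2 fold change over all genes tested was 0.78 under TMM normalization and 0.13 when libraries were scaled by their totals only, so a fold change should be read relative to that shift. The same median was 1.31 in DESeq2 and -0.30 in limma-voom. Without Zeb1WT/ApoeKO replicate 1 or 2 it was 6.42 or 6.32. Zeb2, Vim and Ctbp1 each differed from 0.78 by less than their standard error, and Ctbp2, at 6.29 with a standard error of 5.32, by slightly more.

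**Figure D3:**
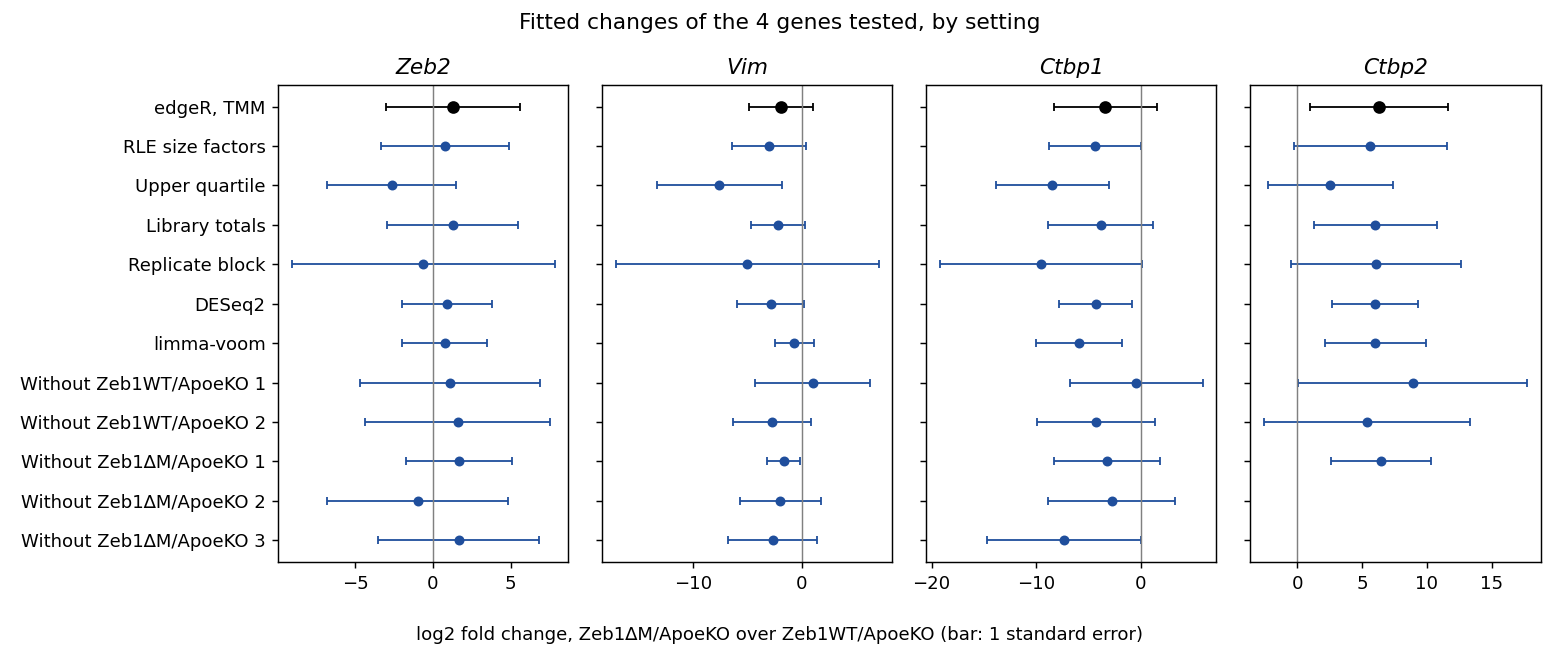
Fitted log2 fold change of Zeb1∆M/ApoeKO over Zeb1WT/ApoeKO for the 4 genes tested, by setting (rows), with bars of 1 standard error; black marks the edgeR fit with TMM normalization. Zeb2 runs from -2.66 to 1.67 and crosses 0, and Vim turns positive without Zeb1WT/ApoeKO replicate 1. Ctbp2 is above 0 wherever it could be fitted, but its 1 and 0 counts in Zeb1WT/ApoeKO leave the sign little room to turn. Without Zeb1WT/ApoeKO replicate 1 or 2 the median over all genes tested is 6.42 or 6.32, and Vim lies below it.

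Around the members, no list of wider EMT and cadherin genes held a gene with an adjusted p under 0.05 in edgeR. DESeq2 called 3 of the 30 listed genes it gave an adjusted p (Itgb1, Rcor1 and Tgfbr1), beside 12.1% of all genes, and limma-voom 1 of 38 (Hdac1), beside 2.96%. In the counts that follow, the libraries are in the order Zeb1WT/ApoeKO 1 and 2, then Zeb1∆M/ApoeKO 1, 2 and 3. Of 14 other EMT transcription factors, 7 were tested, and 6 had a higher and 1 a lower fitted level in Zeb1∆M/ApoeKO, with a median log2 fold change of 3.10. Id3, an inhibitor of E proteins, had 3 and 3018, then 115708, 2167 and 21734 counts. Its log2 fold change was 6.25 with a standard error of 3.19 (edgeR adjusted p = 1), and it was the one gene of these lists with an unadjusted p under 0.05. Its relative Id2 had 578 and 5273, then 39236, 14712 and 22535 counts. The groups of Id2 did not overlap as TMM CPM, as was the case for 11.2% of all genes tested. For both genes the library with the highest count was Zeb1∆M/ApoeKO replicate 1. The E protein gene Tcf12 had 11 and 4577, then 61, 0 and 2372 counts.

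Of 15 partners of CtBP in corepressor complexes, 8 were tested, with 4 higher and 4 lower and a median log2 fold change of 0.24. Ep300, a histone acetyltransferase, was counted throughout, with 10041 and 199, then 4810, 16443 and 2152. Hdac1, a histone deacetylase, had 1529 and 5834, then 3847, 0 and 0 counts. Rcor1, the scaffold of the CoREST complex, had 8654 and 3, then 0, 0 and 0 counts; it failed the filter of the edgeR test, and DESeq2 called it (adjusted p = 4.69e-09). Like Ctbp1, Hdac1 went from over 1000 counts to 0 between libraries of the same genotype.

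Of 27 epithelial genes other than Cdh1, 5 exceeded 100 counts in some library, 9 had at most 3 counts in every library, 3 were tested (1 higher, 2 lower, median log2 fold change -1.72), and the 3 with the highest mean CPM each had over 100 counts in a single library. Jup, which encodes plakoglobin, had 12498 counts in Zeb1WT/ApoeKO replicate 2 and at most 10 elsewhere. Pkp3, which encodes a plakophilin, had 7337 counts and Cldn4, which encodes a tight junction claudin, had 6921, both in Zeb1∆M/ApoeKO replicate 3 and with at most 8 elsewhere. The epithelial markers in the same libraries, given above, were near 0.

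Of 18 mesenchymal genes, 6 were tested, 4 higher and 2 lower, with a median log2 fold change of 2.40, or 1.96 with the 2 genes at 0 in one genotype set to the bound that the floor of 3 counts per library gives. S100a4, a calcium-binding protein also made by macrophages, had 3217 and 3606, then 0, 17566 and 3960 counts. Fn1, which encodes fibronectin, had 0 and 8134, then 4, 11934 and 1404. Itgb1, which encodes a beta integrin, had 0 and 0, then 497, 0 and 15180. The genotypes overlapped or met in value for all 3.

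Among cadherin partners and signaling genes edgeR called 0, while DESeq2 called Tgfbr1 (adjusted p = 0.0379). Of 10 cadherin-catenin and beta-catenin genes, 5 were tested (3 higher, 2 lower, median log2 fold change 1.04), and Ctnna1, which encodes alpha-catenin, had 14 and 26, then 18, 1310 and 35541 counts. Its groups did not overlap as TMM CPM, but as CPM of the library total they did, at 0.696 and 0.752, then 0.739, 36.6 and 702. Gsk3b, the kinase that marks beta-catenin for destruction, had 3401 and 148, then 50, 8665 and 9357, and Tcf7l2, a partner of beta-catenin on DNA, had 4 and 693, then 29, 7340 and 4730. Of 14 TGF-beta pathway genes, 5 were tested (1 higher, 4 lower, median -0.91). Skil, a repressor of SMAD proteins, had 4790 and 4056, then 1, 2388 and 8883 counts. The receptor genes Tgfbr2, with 24 and 11629, then 41, 22 and 8266, and Tgfbr1, with 6 and 3, then 2, 5893 and 10790, were each high in 2 libraries. Of 10 intermediate filament and lamin genes, the relatives and partners of vimentin, 4 were tested (2 higher, 2 lower, median 0.16). Plec, which encodes the crosslinker plectin, had 42 and 1331, then 511, 44 and 20 counts. Lmna had 28 and 755, then 30, 1417 and 1204, and Lmnb1 had 4 and 281, then 8, 0 and 0, both encoding lamins of the nuclear envelope.

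**Figure D4:**
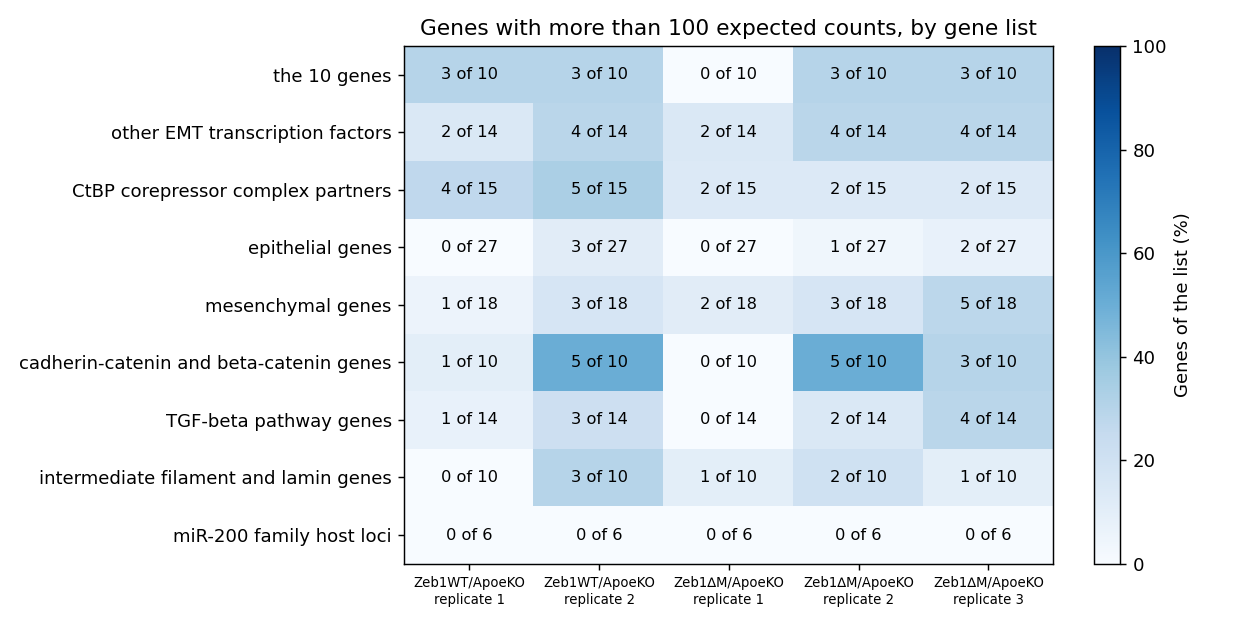
Number of genes above 100 expected counts in each library, by gene list, with color for the share of the list on a scale from 0 to 100%. The 10 genes have 3 above 100 counts in each library but Zeb1∆M/ApoeKO replicate 1, where they have 0, and the miR-200 loci have 0 throughout.

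The genes most like each abundant member over the 5 libraries, by the mean absolute difference in log2 CPM among 7904 other genes tested, were chosen from the values themselves. For Zeb2 they were Cox5b (0.49), Ikbkb (0.54) and mt-Nd5 (0.61), and for Vim they were Ccl2 (0.57), Atp6v1f (0.59) and Gng5 (0.61). For Ctbp1 they were Ccnq (0.31), Cpsf6 (0.65) and Zfp263 (0.66), all at 0 in Zeb1∆M/ApoeKO replicate 2, as Ctbp1 was. For Ctbp2 they included Gm42957 (0.39) and Hspd1-ps3 (0.47), neither of which exceeded 1 count in Zeb1WT/ApoeKO. The 5 points of each pair come from the same libraries and share their depth, and no test was made.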

How the data were processed

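Macrophages were sorted from aortas and libraries were made with the SMART-Seq v4 ultra-low-input kit. According to the submitters' processing notes and the methods, the authors aligned read pairs with STAR 2.5.3a to GRCm38 and quantified genes with RSEM 1.3.0. The authors deposited the expected counts as whole numbers, with no normalization, in 1 table with 55487 genes and a column for each of the 5 libraries. The strand setting of the counting is not given in the sources used here.

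The genotype in a library's title set its group. Counts were tested with the quasi-likelihood test of edgeR 4.0.16 in R 4.3.3 over all genes that passed filterByExpr (minimum count 10), with TMM normalization, no covariate and Benjamini-Hochberg adjustment. Standard errors of edgeR fold changes were derived by dividing the size of the log2 fold change by the square root of its F statistic. Log2 CPM used a prior count of 2. Single genes were compared by exact permutation (two-sided) over the 10 ways to draw 2 of 5 libraries. Per-kilobase levels used the merged exons of GENCODE M21 (GRCm38), which held 55227 of the table's identifiers. The fit was tested on simulated data.

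The alternatives were DESeq2 1.42.0, limma-voom (limma 3.58.1) with sample quality weights, RLE, upper-quartile or library-total scaling, other filters on low counts, mitochondrial genes left out, the replicate number as a block, leaving out each library in turn, and calling at 0.1. The genes and gene lists were chosen with earlier results of these data known. By rule, the text names all 10 genes, the 3 genes with the highest mean CPM of each list, and the 3 genes most like each member that exceeded 3 counts in at least 3 libraries, except for 1 gene like Ctbp2 that is not reported here. Other genes named, such as markers and overlapping genes, come from marker lists and the annotation. Jup, Pkp3 and Rcor1 did not pass the filter. Reads were not analysed here.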

Additional observations from a re-analysis of the deposited data

How the results depend on the processing

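No member passed the threshold under any alternative that was run, and the edgeR alternatives called 0 genes in all. DESeq2 called 790 genes (448 higher, 342 lower in Zeb1∆M/ApoeKO) and limma-voom 234 (175 higher, 59 lower). Of the listed genes, DESeq2 called 3 (Itgb1, Rcor1 and Tgfbr1) and limma-voom 1 (Hdac1); the cause of these differences was not tested. The log2 fold change of Zeb2 turned to -2.66 under upper-quartile scaling (where Vim was -7.55, Ctbp1 -8.44 and Ctbp2 2.56), to -0.61 with the replicate block and to -0.98 without Zeb1∆M/ApoeKO replicate 2, and that of Vim turned to 1.0 without Zeb1WT/ApoeKO replicate 1. With each library left out in turn, Zeb2 ran from -0.98 to 1.67, Vim from -2.75 to 1.0, Ctbp1 from -7.29 to -0.40 and Ctbp2 from 5.37 to 8.91. Both ends for Vim and Ctbp2 and the upper end for Ctbp1 came from fits without a Zeb1WT/ApoeKO library. The median over all genes tested was 6.42 without Zeb1WT/ApoeKO replicate 1 and 6.32 without replicate 2. Without a Zeb1∆M/ApoeKO library it was 0.138 to 0.598. Ctbp2 was not tested without Zeb1∆M/ApoeKO replicate 2 or 3, since it then failed the filter, and Ctbp1 and Ctbp2 were not tested with a minimum of 10 counts in every library. Leaving out a Zeb1WT/ApoeKO library left 1, which was assumed to vary like the other genotype. The replicate block called 0 genes, with 7 at an unadjusted p under 0.05, and gave -4.98 for Vim, -9.54 for Ctbp1 and 6.10 for Ctbp2. The numbers 1 and 2 occur in both genotypes, their deviations correlated at 0.18 across genes, and nothing ties same-numbered libraries together. With 2 libraries against 3, the permutation test cannot give a p under 0.1.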
